A study of Mus musculus with 96 samples.

Results

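The respiratory chain subunits are the proteins of the 4 electron transfer complexes of the inner mitochondrial membrane and of the ATP synthase beside them. Their genes were taken from the expression tables by symbol, as the Nduf a, b, c, s and v genes, Sdha to Sdhd, and the Uqcr, Cox4 to Cox8, Atp5, mt-Nd, mt-Co, mt-Atp and mt-Cytb genes, with no pseudogene symbols holding -ps. The rule gave 102 of the 55536 gene IDs measured, of which 89 are nuclear and 13 lie on the mitochondrial DNA (mtDNA). Among the nuclear IDs, 4 are processed pseudogenes by annotation (Ndufa11b, Ndufb4c, Ndufs6b and Cox6c2), and the symbol Atp5o has 2 IDs. Atp5s, a small protein named for the ATP synthase, and Cox7a2l, a supercomplex factor, also carry matching symbols.

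Complex I takes electrons from NADH and complex II takes them from succinate, complex III passes them to cytochrome c, and complex IV gives them to oxygen. The proton gradient made on the way drives the ATP synthase, complex V. Every complex but complex II is built from subunits of both genomes, so the cell has to make both sets of mRNA, and in the intestinal epithelium oxidative metabolism differs between stem cells, Paneth cells and enterocytes.

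The libraries came from primary-derived intestinal organoids of C57BL/6 mice, which are epithelial cultures grown from crypts, in 4 genotypes of 22 libraries each. The groups were the Apc-min Bmal1-null organoids (APCmin/-;BMAL1-/- in the labels), the Apc-min organoids (APCmin/-;BMAL1+/+), the Bmal1-null organoids (APC+/+;BMAL1-/-) and the control organoids (APC+/+;BMAL1+/+). Apc restrains Wnt signalling and the min allele truncates it, while BMAL1, encoded by Arntl, is a core activator of the circadian clock. All cultures received 0.1 µM dexamethasone for 1 h, which sets their clocks to a common phase, and were then collected at 12 time points, every 2 h from 24 to 46 h. EN medium is given for the Apc-min genotypes and ENR medium for the rest. All libraries of the Apc-min genotypes also have lower library numbers in the labels than all libraries with intact Apc. In comparisons of Apc genotypes, allele, medium and library number therefore cannot be told apart. Organoids of each genotype came from 2 lines, and which of them a library came from is not labelled, so the p-values do not measure how lines differ, only how libraries do.

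Each library held between 28.8 M and 48.1 M uniquely mapped reads. Values are in TPM, the share of a gene's transcripts in its library after correction for length, scaled to the same total in every library, so in bulk organoids fewer cells of a type and less RNA per cell cannot be told apart. Summed markers of intestinal epithelium had medians of 11220 TPM in Apc-min Bmal1-null, 8384 TPM in Apc-min, 16580 TPM in Bmal1-null and 16130 TPM in control libraries, and 6 of 8 fell in both Apc comparisons. Arntl, the gene behind BMAL1, had a median of 8.72 TPM in Bmal1-null (6.31 to 10.9) and 14.5 TPM in control libraries (11.3 to 20.7), and a median of 4.39 TPM in Apc-min Bmal1-null and 11.4 TPM in Apc-min libraries. The library labelled Apc-min Bmal1-null at 28 h, replicate 1, had 14.7 TPM against 2 to 6.22 TPM in the other 21, and the library labelled Apc-min at 28 h, replicate 1, had 4.09 TPM against 7.2 to 17.3 TPM, so 2 libraries went against their labels. Nr1d1, a clock gene activated by BMAL1, went against the label of the first of these, at 12 TPM, with 6.04 TPM in the second, against medians of 4.73 TPM in Apc-min Bmal1-null and 8.12 TPM in Apc-min libraries. Both libraries were kept under their labels, and counts of called nuclear or mtDNA subunits without them are given where these differ. Counts by complex without them are not given. The library Apc-min Bmal1-null at 32 h, replicate 2, stood apart in the subunits themselves and is described with the summed levels.

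Of the 13 subunits encoded in mtDNA, 7 could be followed. The genes mt-Co2, mt-Co3, mt-Atp6, mt-Atp8 and mt-Nd4l were listed at 0 TPM in all 88 libraries, and mt-Nd3 had at most 0.7 TPM. These include the subunits that form the copper site of complex IV and the proton channel of the ATP synthase. Copies of a stretch of mtDNA lie on chromosome 1, where the annotation (GENCODE M21, GRCm38) names them as unprocessed pseudogenes. Of all 101-base windows, the read length, 99.49% in the mt-Co2 transcript, 99.85% in mt-Co3, 99.48% in mt-Atp6, 98.48% in mt-Nd4l and 97.58% in mt-Nd3 occur letter for letter in another annotated gene. For mt-Co2 that gene is Gm28661, which had 0 TPM too. The window below, from the middle of mt-Co2, is shown because a read of this sequence has both places of origin; it lies at chrM:7303-7403 on the plus strand and at chr1:24615175-24615275 on the minus strand, and no letter is in capitals since there is no mismatch.
mt-Co2 and Gm28661: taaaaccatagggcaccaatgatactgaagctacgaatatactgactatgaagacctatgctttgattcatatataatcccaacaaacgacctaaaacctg
Where fewer windows were shared, reads were assigned. The share was 60.72% for mt-Nd4, 30.66% for mt-Co1, 3.09% for mt-Nd2 and 0% for mt-Nd1, mt-Nd5, mt-Nd6 and mt-Cytb, and these 7 genes averaged 812, 5556, 1440, 4469, 881, 79.4 and 3348 TPM. For mt-Atp8 the share was 0%, but the gene lies between annotated copies of its neighbours, and the genome sequence there was not used here. Between 10.4% and 13.5% of the reads in each library were logged as mapping to too many places, and the logged shares of uniquely mapped, too-many-place and unmapped reads added up to between 99.99% and 100.01%, which leaves no share for reads placed at several loci. Levels are therefore not comparable between mtDNA genes, and each was compared only with itself across libraries.

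**Figure D1:**
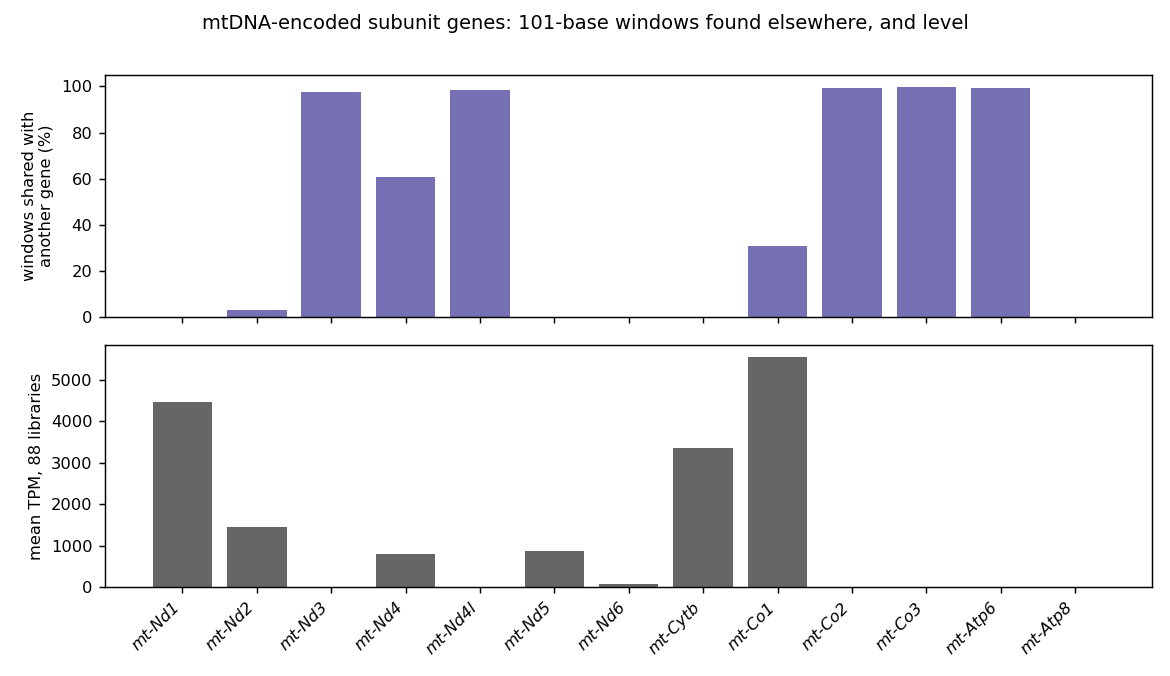
Upper bars, the percent of 101-base windows of each mtDNA-encoded subunit transcript that occur in another annotated gene; lower bars, its mean TPM over the 88 libraries. The genes with more than 97% of windows shared, and mt-Atp8 with none, stand at or near 0 TPM.

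The nuclear subunits were among the abundant mRNAs of the organoids. Their summed level took 2.76% to 4.67% of all TPM in a library. A gene was tested where its mean reached 1 TPM in either group of a comparison, which 79 or 80 of the 89 nuclear IDs did. Cox4i2, a lung and hypoxia isoform of Cox4i1, had at most 0.23 TPM in any library, Cox8b and Cox8c, the muscle and testis isoforms of Cox8a, at most 0.18 and 0.15 TPM, and Cox7b2 at most 0.09 TPM. Cox6a2, the heart and muscle isoform of Cox6a1, reached 1.31 TPM in control libraries, and Ndufa11b, Ndufb4c, Ndufs6b and 1 ID of Atp5o did not pass either. The muscle-type Cox7a1 and the testis-type Cox6b2, by contrast, were measured in all 88 libraries. Some nuclear subunits share read-length windows with other annotated genes, so their values hold some uncertainty. Pseudogenes on other chromosomes hold 33.3% of windows of Ndufb4 (Ndufb4c), 19.66% of Ndufs5 (BC002163), 19.56% of Ndufs3 (Gm12251) and 16.12% of Atp5h (Gm10250), among others. A different kind of sharing comes from genes that overlap a subunit gene on the opposite strand. These hold 28.09% of windows of Ndufb6 (Smim27), 22.66% of Uqcrc2 (Pdzd9), 9.07% of Atp5j (Gabpa) and 8.12% of Cox4i1 (Emc8). A read from such a window has the same place in the genome for both genes, and only its strand tells them apart.

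In organoids with intact Apc, loss of Bmal1 left the subunits where they were within the precision of the test. None of the 80 nuclear and none of the 7 mtDNA subunits differed in Bmal1-null over control organoids (limma, Benjamini-Hochberg adjusted p under 0.05, time point as a factor), and 7 nuclear members had an unadjusted p under 0.05. Across all 12654 genes, 2.09% were called higher and 1.47% lower. Library ranges separated the groups for 0 members, as for 0.15% of all genes. All nuclear log2 differences lay between -0.30 and 0.11, with a median of 0.03 against 0.00 over all genes tested, and the mtDNA subunits had a median of -0.03. Cox6b2 came nearest to a call, with 3.86 ± 0.87 TPM in Bmal1-null and 4.68 ± 1.25 TPM in control libraries (SD, n = 22 each), a log2 difference of -0.22 ± 0.06 (SE, limma adjusted p = 0.052). Uqcrc1, a core protein of complex III, had 600 ± 45 TPM in Bmal1-null and 565 ± 40 TPM in control libraries (log2 difference 0.08 ± 0.03, limma adjusted p = 0.0699). The call for Cox6b2 hung on single libraries, since its adjusted p was 0.0467 without the control library at 24 h, replicate 1, for example.

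The same loss in Apc-min organoids went with lower levels of subunits from both genomes. In Apc-min Bmal1-null over Apc-min organoids 51 of 79 nuclear subunits fell and 1 rose, where 35.7% and 24.6% of all 12885 genes tested were called lower and higher. The median log2 difference was -0.14 over the nuclear subunits and -0.04 over all genes. Of the 7 mtDNA subunits 4 fell, with a median of -0.21, and mt-Nd1, mt-Nd2 and mt-Nd4 were not called, at -0.02, -0.05 and -0.21. Most nuclear differences were small, and 77 of the 79 lay within 0.5 on the log2 scale. Calls in this comparison were lost when the unit was changed: with the 2 library sets of each genotype (the lower- and the higher-numbered library of each time point, which may or may not be the 2 organoid lines) averaged to 1 value each, 3 nuclear subunits and 1 mtDNA subunit fell and 0 rose, against 10.7% lower and 4.22% higher of all genes, and with median-of-ratios scaling 22 nuclear and 2 mtDNA subunits fell. Without the 2 doubted libraries 53 nuclear and 4 mtDNA subunits fell.

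By role, 21 of 36 complex I subunits fell in Apc-min Bmal1-null over Apc-min organoids, 3 of 4 in complex II, 6 of 8 in complex III, 10 of 14 in complex IV and 11 of 17 in complex V. Ndufa4, a subunit first assigned to complex I and since then to complex IV, had 863 ± 102 TPM in Apc-min Bmal1-null and 1084 ± 117 TPM in Apc-min libraries (SD, n = 22 each) and fell by 0.35 on the log2 scale (limma adjusted p = 1.6e-07), lower at 12 of 12 time points. Atp5j, coupling factor 6 of the ATP synthase stalk, had 359 ± 30 TPM against 434 ± 38 TPM, a fall of 0.26 (limma adjusted p = 3.23e-07). Both pairs of groups overlapped in range. Cox8a, the widely expressed isoform of that complex IV subunit, fell by 0.20, and Atp5g3, which encodes the ring subunit c, by 0.14. Among subunits that were not called, the iron-sulfur subunits Ndufs8 and Ndufs7 and the accessory subunit Ndufa5 had estimates above 0, at 0.06, 0.00 and 0.11. Cox6b2 was the nuclear subunit that rose. With all libraries, 0 members had ranges that did not overlap, as for 0% of all genes. Each of the compared groups held 1 of the 2 doubted libraries, so this count cannot tell whether the remaining libraries overlap. Without the doubted ones Cox7a1 had 1.45 to 6.14 TPM in Apc-min Bmal1-null and 7.74 to 81.13 TPM in Apc-min libraries, while the ranges of Ndufa4 and Atp5j still overlapped.

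In the Apc comparisons more nuclear subunits moved past 0.5 on the log2 scale. Within 0.5 lay 71 of 80 in Apc-min over control and 60 of 80 in Apc-min Bmal1-null over Bmal1-null. In Apc-min Bmal1-null over Apc-min it was 77 of 79. In Apc-min over control organoids 43 of 80 nuclear subunits fell and 12 rose, against 31.1% lower and 50.5% higher over all 13663 genes tested, with a median of -0.11 against 0.17. In Apc-min Bmal1-null over Bmal1-null organoids 57 of 80 fell and 5 rose, against 38.8% lower and 45.7% higher of 13404 genes, with a median of -0.27 against 0.07. These 2 comparisons share no library, and 42 nuclear subunits were lower in both, that is 42 of 43 and 42 of 57. The same overlap over all genes was not counted, and both comparisons carry the same difference in medium. The called mtDNA subunits were mt-Nd4 in the first, which did not stay called without the 2 doubted libraries (limma adjusted p = 0.0676 over the other libraries), and mt-Co1, mt-Nd4 and mt-Nd5 in the second, all lower. Under median-of-ratios scaling, which moved the median of all genes from 0.17 to 0.00 in Apc-min over control, 55 nuclear subunits were lower and 4 higher there, and 65 lower and 2 higher in Apc-min Bmal1-null over Bmal1-null. With library-set means as units 22 nuclear subunits were lower and 5 higher in the first (23.4% and 35.9% of all genes), and 48 lower and 3 higher in the second (31.1% and 35.8%). Without the 2 doubted libraries 42 nuclear subunits were lower and 12 higher in the first, and 55 lower and 6 higher in the second. With the length slope described below as a covariate the median of nuclear subunits in Apc-min over control turned to 0.02, and in Apc-min Bmal1-null over Bmal1-null it was -0.11.

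**Figure D2:**
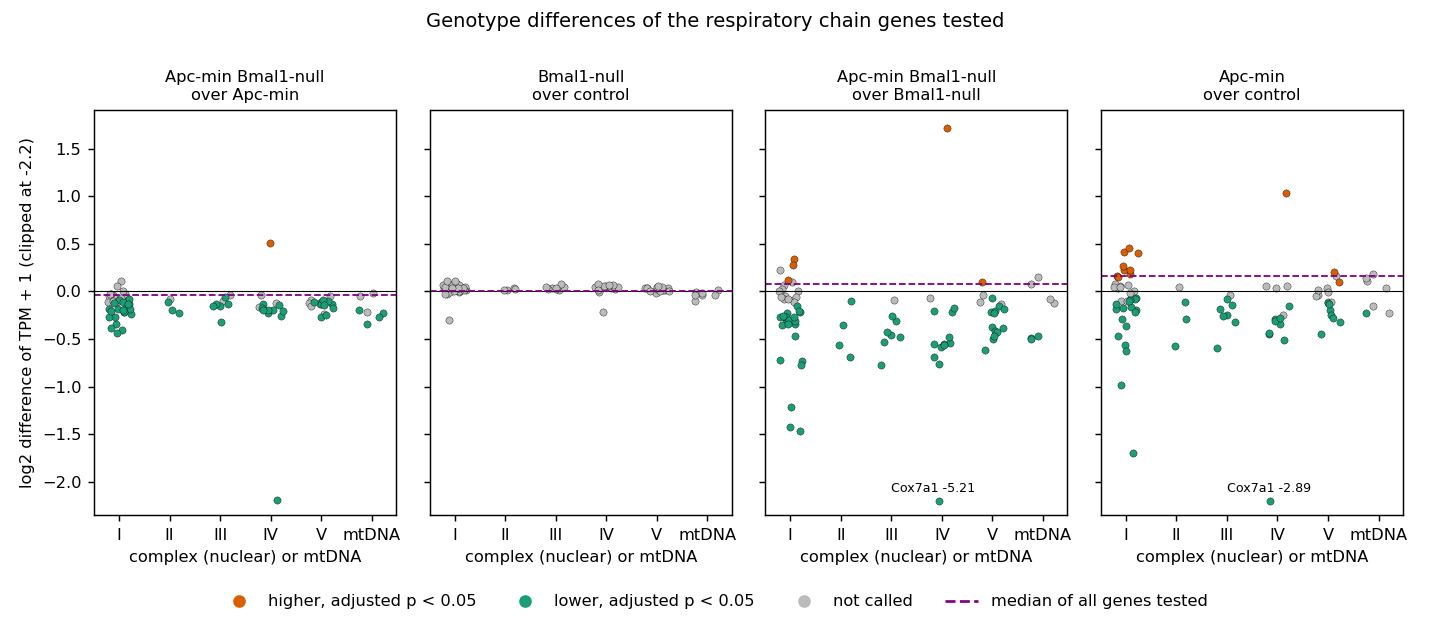
Log2 difference of TPM + 1 (vertical axis) of each subunit gene tested in the 4 comparisons, by complex for nuclear genes and in 1 column for mtDNA genes; green points are called lower, orange points called higher and the dashed line is the median of all genes tested. Nuclear points lie near 0 in Bmal1-null over control, and mostly below the dashed line in complexes II, III and IV in both Apc comparisons, with Cox7a1 drawn at the lower edge.

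Complexes II, III and IV had the larger falls. In Apc-min Bmal1-null over Bmal1-null organoids the median log2 difference of nuclear subunits was -0.22 in complex I, -0.46 in complex II, -0.44 in complex III, -0.55 in complex IV and -0.22 in complex V. All 4 subunits of complex II fell there, 7 of 8 in complex III and 12 of 14 in complex IV. In Apc-min over control 3 of 4, 7 of 8 and 9 of 14 fell. Complex I was mixed, with 17 of 37 subunits lower and 9 higher in Apc-min over control, and 21 lower and 3 higher in Apc-min Bmal1-null over Bmal1-null. With the length slope described below as a covariate the complex I counts turned to 8 lower and 20 higher in Apc-min over control (median 0.13), and were 14 lower and 15 higher over Bmal1-null (median -0.03). The medians over Bmal1-null were then -0.55 in complex II, -0.24 in complex III, -0.35 in complex IV and -0.18 in complex V. In Apc-min over control they were -0.30, -0.09, -0.12 and -0.03 in the same order, against -0.20, -0.22, -0.28 and -0.11 without the covariate. With it, complex III had 4 subunits lower and 2 higher there, and complex IV 7 lower and 4 higher. As summed TPM, the nuclear part of complex IV averaged 6900 ± 981 in Apc-min Bmal1-null, 7820 ± 859 in Apc-min, 9690 ± 1080 in Bmal1-null and 9380 ± 1060 in control libraries (SD, n = 22 each). For complex II the sums were 1120 ± 79, 1260 ± 79, 1470 ± 32 and 1450 ± 44 in the same order of genotypes, and no Apc-min Bmal1-null library, at most 1300, reached the lowest Bmal1-null library at 1430.

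Library ranges of 15 of the 80 nuclear subunits tested did not overlap between Apc-min Bmal1-null and Bmal1-null organoids, 14 of them lower in Apc-min Bmal1-null. Of all genes, 15.3% were lower without overlap and 30.4% were apart in either direction. In complex I these were Ndufa1, Ndufa4l2, Ndufa6, Ndufb9, Ndufb11 and Ndufv3, in complex II Sdhb and Sdhc, in complex III Uqcrc1, and in complex IV Cox5b, Cox6c, Cox7a1, Cox7b and Cox8a, with Cox6b2 higher. Between Apc-min and control organoids the ranges of 3 of 80 did not overlap, those of Ndufa4l2, Sdhb and Cox7a1, all lower in Apc-min. Of all genes, 12.9% were lower without overlap there and 28.1% were apart in either direction. Ndufa4l2 is counted here and among the lower calls of both comparisons. It passed the filter only through the groups where it was higher. No mtDNA subunit had separate ranges in any of the 4 comparisons.

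Cox7a1, the heart and muscle isoform of a small complex IV subunit, changed most. It had 1.45 to 37.8 TPM in Apc-min Bmal1-null libraries with a median of 3.18, 2.81 to 81.1 TPM in Apc-min libraries with a median of 12.9, 127 to 243 TPM in Bmal1-null libraries with a median of 154, and 103 to 222 TPM in control libraries with a median of 149. All 44 libraries of the Apc-min genotypes were below all 44 others. Apc-min libraries fell into 2 levels by library set: 9 lower-numbered libraries had 40.83 to 81.13 TPM and 12 higher-numbered ones 7.74 to 14.13 TPM. Both doubted libraries were outside their group, with 2.81 TPM in the one labelled Apc-min and 37.85 TPM in the one labelled Apc-min Bmal1-null, whose other libraries had 1.45 to 6.14 TPM. The log2 difference of Cox7a1 was -2.19 ± 0.36 in Apc-min Bmal1-null over Apc-min (SE, limma adjusted p = 4.63e-06), -5.21 ± 0.17 over Bmal1-null (adjusted p = 1.1e-25) and -2.89 ± 0.29 in Apc-min over control (adjusted p = 3.49e-11). In Bmal1-null over control it was 0.06 ± 0.09 and was not called. The widely expressed isoform Cox7a2 had 478 ± 48 TPM in Apc-min Bmal1-null, 547 ± 55 TPM in Apc-min, 557 ± 74 TPM in Bmal1-null and 536 ± 56 TPM in control libraries. Summed muscle markers (Acta2, Myh11, Des, Myh6, Ckm and Actn2) had medians of 5.45, 1.54, 0.035 and 0.02 TPM in these genotypes. Of this list only Acta2 reached a mean of 1 TPM, in both Apc-min genotypes, and the striated muscle genes Myh6, Ckm and Actn2 had medians of 0 TPM in every genotype.

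Ndufa6, an accessory subunit of the matrix arm of complex I, had 167 to 276 TPM in Apc-min Bmal1-null libraries, 199 to 440 TPM in Apc-min, 493 to 701 TPM in Bmal1-null and 433 to 650 TPM in control libraries, with medians of 195, 258, 554 and 520 TPM. Between the Apc-min genotypes and the genotypes with intact Apc, only the ranges of Apc-min and control touched. It fell by 1.46 on the log2 scale in Apc-min Bmal1-null over Bmal1-null (limma adjusted p = 4.1e-25) and by 0.98 in Apc-min over control (adjusted p = 1.9e-14), lower at 12 of 12 time points in each. As for Cox7a1, the Apc-min sets were apart, with 296.01 to 440.12 TPM of Ndufa6 in 9 lower-numbered and 207.6 to 277.67 TPM in 12 higher-numbered libraries, and 198.72 TPM in the doubted library labelled Apc-min. Ndufv3, an accessory subunit near the NADH-oxidising site, had a median of 112 TPM in Apc-min Bmal1-null (82.9 to 206), 168 TPM in Apc-min (90.5 to 333), 274 TPM in Bmal1-null (249 to 321) and 256 TPM in control libraries (219 to 303). It fell by 1.21 in Apc-min Bmal1-null over Bmal1-null (limma adjusted p = 1.35e-18). In the lower-numbered Apc-min set Ndufv3 had a median of 238 TPM (101 to 333, n = 10), within the control range, and in the higher-numbered set 136 TPM (90.5 to 187, n = 12), below it. The membrane-arm subunits Ndufb11 and Ndufb9 fell by 0.77 and 0.72 in Apc-min Bmal1-null over Bmal1-null. Ndufa4l2, a hypoxia-responsive paralogue of Ndufa4, had at most 0.06 TPM in Apc-min Bmal1-null and 0.32 TPM in Apc-min libraries, against 0.6 to 3.18 TPM in Bmal1-null and 0.62 to 4.78 TPM in control libraries. Ndufa4l2 was tested in the Apc comparisons only because its mean passed 1 TPM in the groups where it was higher, so its call and its separate ranges there add nothing to these values.

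**Figure D3:**
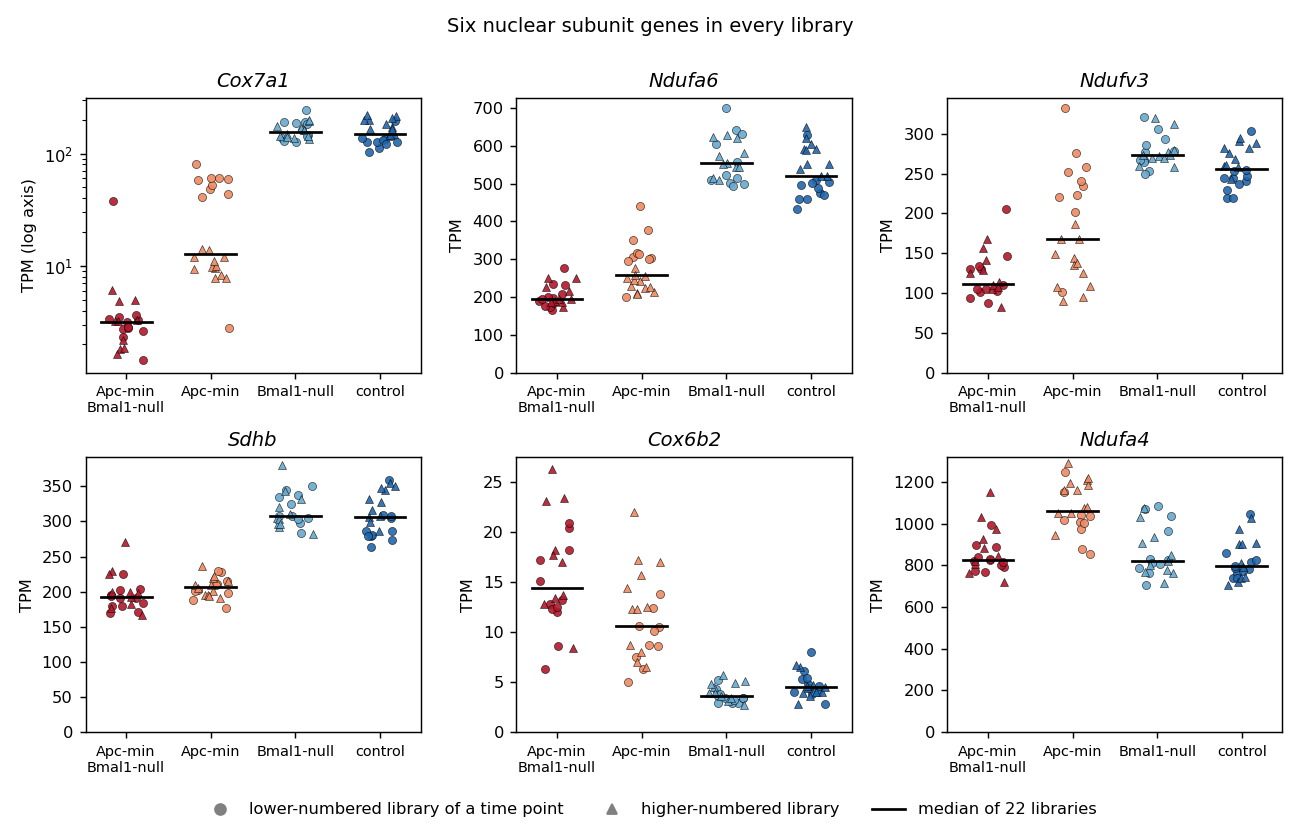
TPM of 6 nuclear subunit genes (vertical axes, logarithmic for Cox7a1) in each of the 22 libraries per genotype, with the median as a line; circles are the lower-numbered and triangles the higher-numbered library of a time point. Cox7a1 splits the Apc-min libraries by set at 40.83 to 81.13 against 7.74 to 14.13 TPM with 1 circle at 2.81, and Cox6b2 is the panel in which the Apc-min genotypes lie above the other genotypes.

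In complex II, the iron-sulfur subunit Sdhb had 166 to 271 TPM in Apc-min Bmal1-null, 176 to 237 TPM in Apc-min, 282 to 381 TPM in Bmal1-null and 264 to 360 TPM in control libraries, with medians of 192, 207, 308 and 307 TPM. Both Apc comparisons were without overlap for Sdhb, at -0.69 ± 0.04 over Bmal1-null (limma adjusted p = 3.15e-17) and -0.57 ± 0.04 in Apc-min over control (limma adjusted p = 6.93e-15). The membrane anchor Sdhc fell by 0.56 and 0.29, and the flavoprotein Sdha by 0.35 and 0.11, in the same comparisons. The other anchor, Sdhd, had 354 ± 19 TPM in Apc-min Bmal1-null and 379 ± 13 TPM in Bmal1-null libraries and fell by 0.10, while in Apc-min over control it was not called at 0.05 as deposited and was called lower at -0.14 with median-of-ratios scaling (limma adjusted p = 0.0086). In complex III, Uqcrq, a small subunit, had 621 ± 99 TPM in Apc-min Bmal1-null, 684 ± 78 TPM in Apc-min, 1060 ± 146 TPM in Bmal1-null and 1030 ± 154 TPM in control libraries.

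In complex IV, Cox4i1, the main isoform of its regulatory subunit, had a median of 1200 TPM in Apc-min Bmal1-null (1050 to 1890), 1480 TPM in Apc-min (1220 to 1850), 1840 TPM in Bmal1-null (1590 to 2340) and 1780 TPM in control libraries (1500 to 2440). It fell by 0.59 in Apc-min Bmal1-null over Bmal1-null and by 0.28 in Apc-min over control, and Cox6a1, the liver-type isoform, by 0.77 and 0.51. Cox6b1, the widely expressed partner of Cox6b2, had 1200 ± 347 TPM in Apc-min Bmal1-null, 1350 ± 204 TPM in Apc-min, 1330 ± 202 TPM in Bmal1-null and 1300 ± 215 TPM in control libraries. Cox6b1 was called lower in Apc-min Bmal1-null over Bmal1-null at -0.17 (limma adjusted p = 0.0462) and turned to 0.20 once the length slope described below was a covariate. Cox7a2l, which joins complexes III and IV, was not called in either Apc comparison, at -0.06 and 0.06.

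Of the 37 complex I genes tested, 9 rose in Apc-min over control and 3 in Apc-min Bmal1-null over Bmal1-null, where 50.5% and 45.7% of all genes rose. They made up 9 of the 12 and 3 of the 5 nuclear subunits that rose. Cox6b2 had 6.31 to 26.3 TPM in Apc-min Bmal1-null, 4.97 to 21.9 TPM in Apc-min, 2.69 to 5.71 TPM in Bmal1-null and 2.81 to 7.97 TPM in control libraries, with medians of 14.4, 10.6, 3.57 and 4.47 TPM. It rose by 1.72 ± 0.09 in Apc-min Bmal1-null over Bmal1-null (limma adjusted p = 8.83e-20), by 1.03 ± 0.10 in Apc-min over control (adjusted p = 2.64e-11) and by 0.51 ± 0.11 in Apc-min Bmal1-null over Apc-min (adjusted p = 1.24e-04). The membrane-arm subunits Ndufb6 and Ndufc2 rose by 0.45 and 0.41 in Apc-min over control, with Ndufa4 at 0.41 and Atp5f1, a stalk subunit of the ATP synthase, at 0.20. Ndufb6 stood at 257 ± 28 TPM in Apc-min and 189 ± 27 TPM in control libraries. Over Bmal1-null, Apc-min Bmal1-null organoids had higher levels of other genes too: Ndufb6 (0.34), Ndufs4 (0.28), Ndufs1 (0.12) and Atp5f1 (0.09) rose beside Cox6b2, and Ndufa4 was not called at 0.01. Under median-of-ratios scaling Ndufs1, an iron-sulfur core subunit, and Atp5f1 turned to -0.01 and -0.04 there, and with the length slope as a covariate Ndufs1 was at -0.07.

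The promoters of Cox7a1, Ndufa6 and Cox6b2, from RefSeq (GRCm38.p6), are shown because these genes had the largest falls and the largest rise among nuclear subunits in Apc-min Bmal1-null over Bmal1-null. Each is 300 bases long, with 250 before the start of the gene, in the direction of the gene, and capitals mark matches to the motifs counted below on either strand. Cox7a1 lies at chr7:30183921-30184220 (plus strand), Ndufa6 at chr15:82354242-82354541 (minus strand) and Cox6b2 at chr7:4753045-4753344 (minus strand).
Cox7a1: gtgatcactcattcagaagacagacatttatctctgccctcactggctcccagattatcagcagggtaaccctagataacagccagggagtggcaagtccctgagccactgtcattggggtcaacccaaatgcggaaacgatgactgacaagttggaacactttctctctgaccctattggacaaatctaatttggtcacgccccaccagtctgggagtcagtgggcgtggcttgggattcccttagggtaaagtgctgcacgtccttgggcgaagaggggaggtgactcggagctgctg
Ndufa6: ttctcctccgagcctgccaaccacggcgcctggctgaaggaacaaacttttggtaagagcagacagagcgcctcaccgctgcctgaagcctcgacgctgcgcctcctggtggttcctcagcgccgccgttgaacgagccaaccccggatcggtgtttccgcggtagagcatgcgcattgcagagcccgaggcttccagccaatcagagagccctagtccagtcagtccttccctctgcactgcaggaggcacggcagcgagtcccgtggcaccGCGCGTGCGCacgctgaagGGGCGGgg
Cox6b2: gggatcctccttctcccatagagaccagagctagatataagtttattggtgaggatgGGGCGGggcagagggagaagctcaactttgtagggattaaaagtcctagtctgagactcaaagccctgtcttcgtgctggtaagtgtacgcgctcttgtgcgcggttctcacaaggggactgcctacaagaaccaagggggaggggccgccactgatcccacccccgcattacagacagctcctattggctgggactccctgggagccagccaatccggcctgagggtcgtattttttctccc
The Cox7a1 promoter holds none of the motifs, that of Ndufa6 holds an NRF1 and an Sp1 match, and that of Cox6b2 an Sp1 match. The table held 71 promoters for 66 of the 88 nuclear symbols. NRF1 motifs (GCGC, then A and any base, then GCGC), read by a regulator of nuclear mitochondrial genes, were found in 25.4% of them and in 4.6% of all 32851 promoters, ETS motifs (CCGGAAG) in 22.5% and 8.9%, and YY1 motifs (ATGGCG) in 28.2% and 8.9%. Sp1 motifs (GGGCGG) were found in 38.0% of the subunit promoters and in 35.7% of all promoters. The E-box CACGTG, read by BMAL1 and CLOCK, was found in 8.5% of the subunit promoters and in 7.2% of all promoters. The TCF motif CTTTGAT, read by the nuclear effectors of Wnt signalling, was found in 1.4% of the subunit promoters and in 3.7% of all promoters.

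Ranges of the subunits encoded in mtDNA overlapped between the groups in every comparison. The level of mt-Co1, the catalytic subunit of complex IV, was 2160 to 5830 TPM in Apc-min Bmal1-null, 3300 to 7360 TPM in Apc-min, 3490 to 8800 TPM in Bmal1-null and 4050 to 8220 TPM in control libraries, with medians of 4420, 5910, 5970 and 6050 TPM. It fell by 0.34 ± 0.08 in Apc-min Bmal1-null over Apc-min (limma adjusted p = 6.66e-04), lower at 11 of 12 time points, and by 0.50 ± 0.10 over Bmal1-null (limma adjusted p = 1.61e-05), lower at 12 of 12. In Apc-min over control mt-Co1 was not called, at -0.15 ± 0.08. The complex I core subunits mt-Nd4 and mt-Nd5 fell by 0.48 and 0.46 in Apc-min Bmal1-null over Bmal1-null. In Apc-min Bmal1-null over Apc-min mt-Nd5 fell by 0.22 and mt-Nd6, the subunit encoded on the other mtDNA strand, by 0.27, while mt-Cytb, the haem-carrying subunit of complex III, fell by 0.20. The membrane-arm subunit mt-Nd1 was not called in any of the 4 comparisons, with medians of 4850 TPM in Apc-min Bmal1-null, 4620 TPM in Apc-min, 4190 TPM in Bmal1-null and 4190 TPM in control libraries. In Apc-min over control mt-Nd2 (0.18), mt-Nd1 (0.11) and mt-Cytb (0.14) had estimates above 0 and were not called, and with median-of-ratios scaling they were at -0.00, -0.08 and -0.04. Without the 2 doubted libraries mt-Nd2 (limma adjusted p = 0.048) and mt-Cytb (limma adjusted p = 0.0461) were called higher there, and no mtDNA subunit was called lower.

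Whether the Bmal1 difference depended on the Apc genotype was tested as an interaction over all 88 libraries. It was called negative (limma adjusted p under 0.05) for 42 of 80 nuclear subunits and for 1 of 7 mtDNA subunits. It was called positive for 1 nuclear subunit, against 29.6% called negative and 18.1% called positive among all 13846 genes tested. The estimate, called or not, was below 0 for 75 of the 80 nuclear and 7 of the 7 mtDNA subunits. The share of all genes with an estimate below 0 was not counted. The median was -0.16 over nuclear subunits and -0.05 over all genes. Cox7a1 had an interaction of -2.28 ± 0.35 (limma adjusted p = 9.36e-08), Ndufa6 of -0.47 ± 0.09 and Ndufa1, a small membrane-arm subunit, of -0.45 ± 0.09. Cox6b2 had the positive call, at 0.69 ± 0.13 (limma adjusted p = 7.28e-06), and mt-Co1 the mtDNA call, at -0.32 ± 0.13 (limma adjusted p = 0.028). With library-set means as units no member was called, against 445 of all 13846 genes. With median-of-ratios scaling 12 nuclear subunits were called negative and 1 positive. Without the 2 doubted libraries 44 nuclear subunits were called negative and 1 positive.

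Summed over members, the nuclear genome gave a median of 30500 TPM in Apc-min Bmal1-null (27600 to 44000), 35400 TPM in Apc-min (30400 to 40300), 38600 TPM in Bmal1-null (35400 to 46700) and 37400 TPM in control libraries (33900 to 46500). The mtDNA sum had medians of 15600 TPM (8080 to 19000), 17400 TPM (12000 to 22900), 16700 TPM (10300 to 24200) and 16700 TPM (12200 to 22400) in the same order of genotypes. The ratio of the mtDNA to the nuclear sum was 0.484 ± 0.124 in Apc-min Bmal1-null, 0.489 ± 0.082 in Apc-min, 0.441 ± 0.123 in Bmal1-null and 0.456 ± 0.116 in control libraries (SD, n = 22 each). These differences were smaller than the SD of any genotype, and the mtDNA sum counts only the genes whose reads were assigned. The library Apc-min Bmal1-null at 32 h, replicate 2, had the highest nuclear sum of its genotype, 44000 TPM against 27600 to 37500 TPM in the other 21, and the lowest mtDNA sum, 8080 TPM against 9720 to 19000 TPM. Without it 65 members were called in Apc-min Bmal1-null over Apc-min and 72 over Bmal1-null, against 56 and 65 with it.

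**Figure D4:**
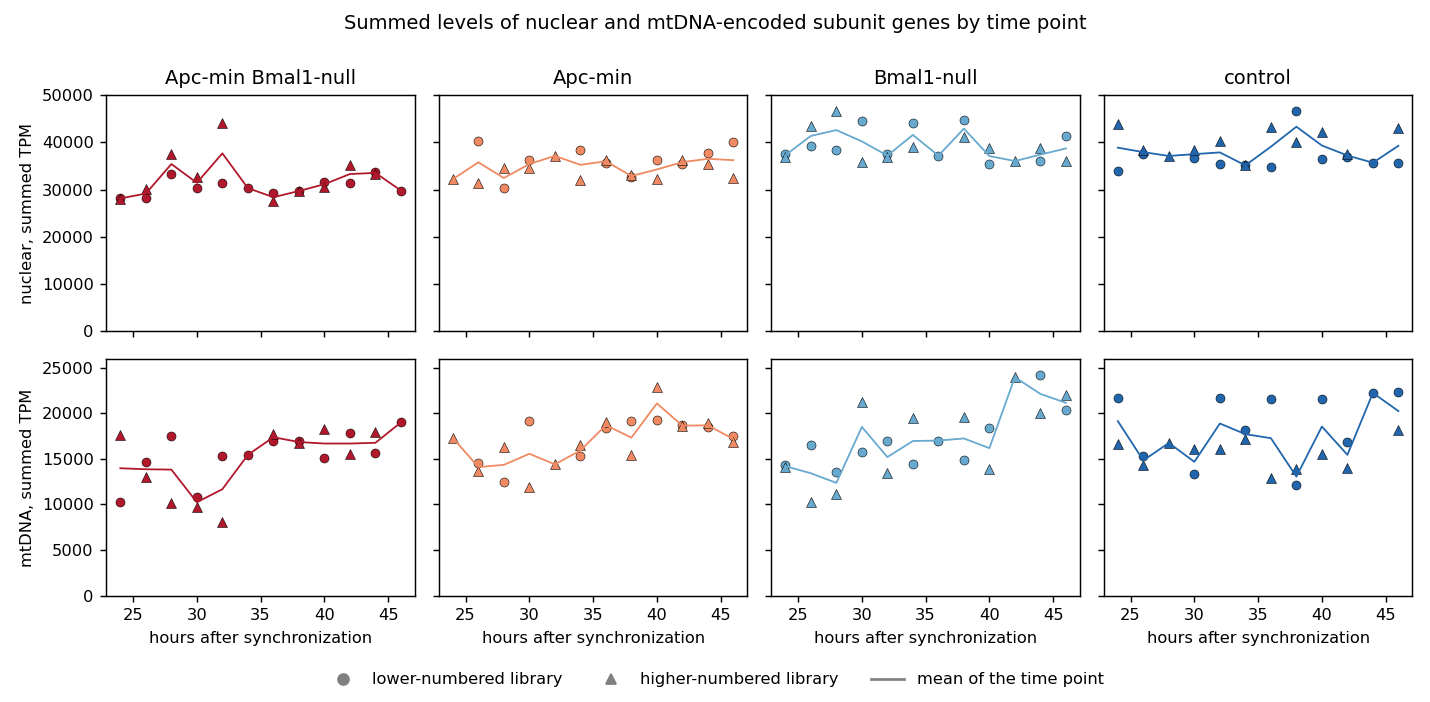
Summed TPM of nuclear (upper row) and mtDNA-encoded (lower row) subunit genes against hours after synchronization, 1 point per library and the mean of each time point as a line, by genotype. The nuclear sums stay level over time, while mtDNA sums in Apc-min Bmal1-null, Apc-min and Bmal1-null libraries are higher after 36 h, with late medians of 17000, 18600 and 19800 TPM.

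A property of the libraries moved with the nuclear sums. The slope of log2(TPM + 1) on log10 exon length over 12875 genes measures how much long transcripts weigh in a library, and many nuclear subunits are small proteins with short mRNAs. Its median was 0.712 in Apc-min Bmal1-null, 0.634 in Apc-min, 0.414 in Bmal1-null and 0.37 in control libraries. In 5 libraries it was below 0 (1 Apc-min Bmal1-null, 3 Bmal1-null and 1 control), and these had nuclear sums of 43500 to 46700 TPM and mtDNA sums of 8080 to 14800 TPM, against 27600 to 44500 TPM and 9720 to 24200 TPM in the other 83. Reads unmapped as too short also differed, from 0.75% to 3.86% in Apc-min Bmal1-null and 0.82% to 1.96% in Apc-min against 2.9% to 13.2% in Bmal1-null and 2.93% to 15.8% in control libraries. With the slope as a covariate 26 nuclear subunits were lower and 34 higher in Apc-min over control (40.9% and 41.8% of all genes), and 45 lower and 23 higher in Apc-min Bmal1-null over Bmal1-null (50.2% and 38.4%). Of the lower calls, 25 of 43 were kept in the first and 43 of 57 in the second. Cox7a1, Ndufa6, Ndufb11, Sdhb, Sdhc and Cox8a were among the genes that stayed lower in both, and Cox6b2 stayed higher. Of the mtDNA subunits, mt-Co1 (-0.36), mt-Nd4 (-0.46) and mt-Nd5 (-0.63) were called lower and mt-Nd6 (0.32) higher in Apc-min over control with this covariate. In Apc-min Bmal1-null over Apc-min, where the slopes lay closer, 62 nuclear subunits were lower and 1 higher (42.8% and 31.2%).

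**Figure D5:**
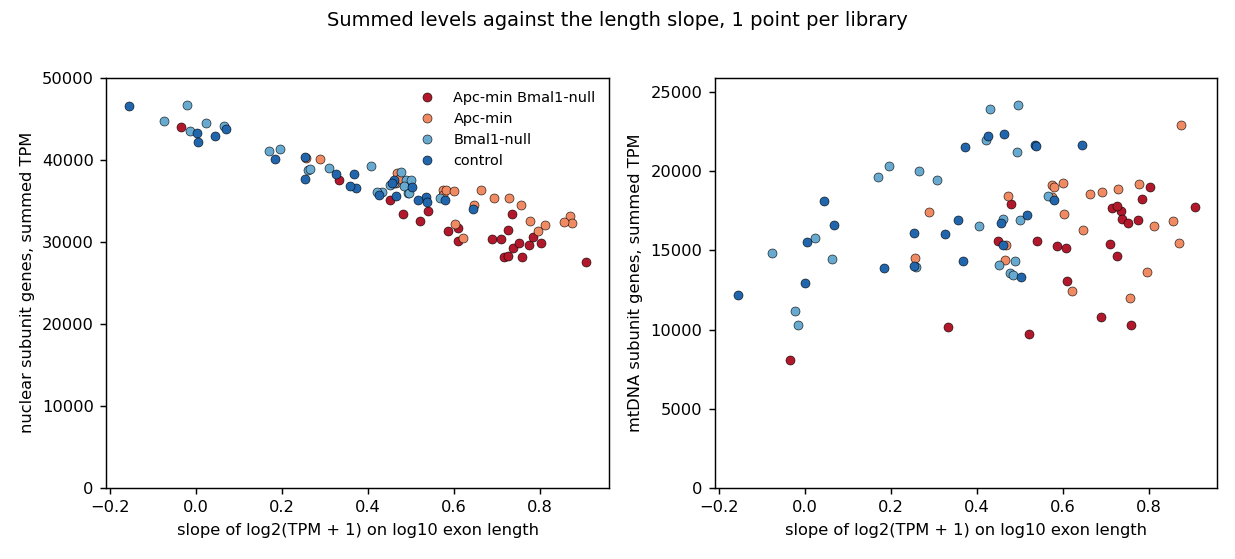
Summed TPM of nuclear (left) and mtDNA-encoded (right) subunit genes against the slope of log2(TPM + 1) on log10 exon length, 1 point per library, coloured by genotype. The 5 libraries with a slope below 0 hold nuclear sums of 43500 to 46700 TPM, and the Apc-min genotypes lie to the right at median slopes of 0.712 and 0.634.

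Over the sampled day the mtDNA subunits varied more than the nuclear ones. From 24 to 34 h and from 36 to 46 h the median mtDNA sum was 13100 and 17000 TPM in Apc-min Bmal1-null, 14900 and 18600 TPM in Apc-min, 14400 and 19800 TPM in Bmal1-null, and 16600 and 16900 TPM in control libraries. The nuclear medians were 30300 and 30600 TPM, 34500 and 35500 TPM, 38700 and 38000 TPM, and 37100 and 37600 TPM. The ratio of the sums had early and late medians of 0.434 and 0.565 in Apc-min Bmal1-null, 0.422 and 0.522 in Apc-min, 0.373 and 0.504 in Bmal1-null, and 0.419 and 0.422 in control libraries. The later median of the ratio was higher in the Apc-min Bmal1-null, Apc-min and Bmal1-null libraries, while the control medians lay close together. The length slope described above had early and late medians of 0.688 and 0.738, 0.611 and 0.677, 0.429 and 0.344, and 0.46 and 0.254 in the same order. With it as a covariate the cosine tests below called 26 of 86 members in Apc-min, where 5486 of all 12625 genes were called. In Apc-min Bmal1-null libraries they called 4 of 86 members and 1237 of 12206 genes. In Bmal1-null and control libraries 0 members were called, with 157 of 12550 and 57 of 12570 genes. For the difference between genotypes 10 of 87 members and 572 of 13846 genes were called.

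A cosine and sine of 24 h period were fitted within each genotype, and since 1 cycle was sampled a linear term was fitted in their place as well. The cosine was called for 0 of 87 members in control and 0 of 87 in Bmal1-null libraries, against 0.0557% and 0% of all genes called. An unadjusted limma p under 0.05 was found for 6 and 5 of the 87 members. The share of all genes at that unadjusted threshold was not counted. In Apc-min libraries 6 of 86 members were called against 12% of all genes: mt-Co1, mt-Nd5, mt-Cytb, Sdha, the complex III core protein Uqcrc2, and Atp5s. The fitted peaks lay between 39.3 and 40.9 h, and the swing from trough to peak was 1.51-fold for mt-Co1 (limma adjusted p = 0.0163) and 1.25-fold for Sdha (limma adjusted p = 0.0194). In Apc-min Bmal1-null libraries mt-Nd1 (limma adjusted p = 0.0391) and Cox6b2 (limma adjusted p = 0.0492) were called, against 2.59% of all genes, with peaks at 41.7 and 40.7 h. Without the doubted library 2 members were called in Apc-min, mt-Nd5 and mt-Co1, and 11 in Apc-min Bmal1-null, which were mt-Nd1, mt-Nd2, mt-Nd4, mt-Nd5, mt-Cytb, mt-Co1, Ndufv3, Sdhc, Sdhd, Uqcrc1 and Cox6b2. Across all genes 401 of 12633 were then called in Apc-min and 1444 of 12126 in Apc-min Bmal1-null libraries. With a linear term beside the cosine 0 members were called in either genotype. That fit called 0 of all 12625 genes in Apc-min and 0 of 12206 in Apc-min Bmal1-null libraries, so it cannot tell the subunits from other genes.

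The linear term called 6 of the 7 mtDNA subunits in Bmal1-null libraries, all rising, against 3.43% of all genes. From 24 to 46 h the fitted log2 change was 1.22 for mt-Nd6, 0.90 for mt-Nd2, 0.77 for mt-Co1, 0.68 for mt-Nd4, 0.66 for mt-Nd1 and 0.57 for mt-Cytb (limma adjusted p between 0.000851 and 0.0297). The nuclear genes Sdhc and Cox8a fell by 0.14 and 0.26 there, against 3.28% of all genes. In Apc-min libraries 13 members rose and 2 fell (22.2% and 9.01% of all genes), among them mt-Co1 by 0.62, mt-Cytb by 0.41 and Sdha by 0.38. In Apc-min Bmal1-null libraries 8 rose and 0 fell (5.62% and 2.82%), among them mt-Nd1 by 0.64 and mt-Nd2 by 0.68. In control libraries 1 member rose, Cox6b2, by 0.62, and 0 fell (0.971% and 1.23%). Cox6b2 rose by 1.24 in Apc-min Bmal1-null and by 1.03 in Apc-min libraries too.

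The time course differed between genotypes for 2 of the 87 members tested, both nuclear, against 1.87% of all genes. With median-of-ratios scaling, or without the 26 h time point, 0 were called. Uqcrc1 had early and late medians of 472 and 514 TPM in Apc-min Bmal1-null, 495 and 522 TPM in Apc-min, 624 and 565 TPM in Bmal1-null, and 581 and 540 TPM in control libraries (limma adjusted p = 0.0099 for the difference). Sdhc had 288 and 321 TPM, 333 and 381 TPM, 463 and 435 TPM, and 457 and 431 TPM in the same order of genotypes (limma adjusted p = 0.0242). In both genes the later median was higher in the Apc-min genotypes and lower in the other genotypes. No mtDNA subunit was called in this test, so their flatter course in control libraries is not shown to differ from the others.

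The chain also depends on genes that build and feed it. Of 79 mitochondrial ribosomal protein genes tested, which build the ribosome that translates the mtDNA mRNAs, 53 rose and 2 fell in Apc-min Bmal1-null over Apc-min, 66 rose and 8 fell over Bmal1-null, and 60 rose and 9 fell in Apc-min over control. Of all genes, 24.6%, 45.7% and 50.5% rose in these comparisons. The median log2 differences of the list were 0.15, 0.37 and 0.27, against -0.04, 0.07 and 0.17 over all genes, and with library-set means 3, 58 and 40 rose. Mrpl3 had 184 ± 16 TPM in Apc-min Bmal1-null, 158 ± 29 TPM in Apc-min, 88 ± 7 TPM in Bmal1-null and 87 ± 6 TPM in control libraries. Of 28 genes of mtDNA replication, transcription and RNA handling, 16, 21 and 19 rose and 3, 4 and 4 fell in these comparisons (2, 18 and 14 rose with library-set means), among them Tfam, the mtDNA packaging factor, at 0.37 in Apc-min Bmal1-null over Apc-min. The mtDNA ribosomal RNAs fell in all of them: mt-Rnr2 by 0.56, 0.75 and 0.20, and mt-Rnr1 by 0.12, 0.72 and 0.59.

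Of 46 assembly factors 15, 25 and 26 rose and 7, 14 and 9 fell in the same comparisons, where 24.6%, 45.7% and 50.5% of all genes rose, and with library-set means 0, 16 and 15 rose. Ndufaf4, an assembly factor of complex I, had 106 ± 14 TPM in Apc-min Bmal1-null, 79 ± 22 TPM in Apc-min, 37 ± 3 TPM in Bmal1-null and 37 ± 3 TPM in control libraries. Among 6 electron carrier genes, the electron transfer flavoprotein genes Etfa, Etfb and Etfdh fell in all 3 comparisons (Etfdh by 0.32, 1.08 and 0.61), while cytochrome c (Cycs) rose by 0.48 over Bmal1-null and by 0.42 in Apc-min over control. Of 13 tricarboxylic acid cycle genes, which feed the chain with NADH and succinate, 4, 10 and 7 fell and 0, 2 and 2 rose, with Suclg1 at -0.93 and Idh3a at 0.78 in Apc-min Bmal1-null over Bmal1-null. Across all genes 35.7%, 38.8% and 31.1% fell in the 3 comparisons, so the 4 of 13 in Apc-min Bmal1-null over Apc-min lay near the share of all genes. Of 9 regulators of mitochondrial biogenesis 3, 6 and 6 rose and 2, 3 and 2 fell. Esrra, a nuclear receptor of oxidative genes, fell by 0.88 over Bmal1-null and by 0.67 in Apc-min over control, and its coactivator Ppargc1a had 1.36 ± 1.36 TPM in Apc-min Bmal1-null, 4.73 ± 1.53 TPM in Apc-min and 4.18 ± 1.36 TPM in Bmal1-null libraries. Myc rose in all 3, by 0.33, 1.28 and 1.00.

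Markers of cell types moved with the Apc comparisons. All 8 enterocyte markers fell in both, with median log2 differences of -6.88 in Apc-min Bmal1-null over Bmal1-null and -6.80 in Apc-min over control, and summed medians of 55.3 TPM in Apc-min Bmal1-null (44.38 to 374.4), 137 TPM in Apc-min (50.43 to 821), 7022 TPM in Bmal1-null (5440 to 8428) and 7768 TPM in control libraries (5946 to 9114). Of 5 Paneth markers 4 fell and 1 rose in both, with summed medians of 530 TPM, 1899 TPM, 15540 TPM and 15310 TPM, and all 5 goblet markers fell. All 7 proliferation markers rose in both, with summed medians of 1385, 1211, 733 and 740 TPM, and in Apc-min Bmal1-null over Apc-min 5 of 7 rose, where 45.7%, 50.5% and 24.6% of all genes rose over Bmal1-null, in Apc-min over control and over Apc-min. With library-set means 6, 2 and 0 of the 7 rose, and with the length slope 6, 3 and 5. Summed immune markers had medians of 7.48 TPM in Apc-min Bmal1-null (3.32 to 19.95), 24.6 TPM in Apc-min (7.77 to 42.53), 3.27 TPM in Bmal1-null (2.5 to 4.26) and 3.30 TPM in control libraries (2.13 to 4.34). These sums came from Cd68 and Lyz2, while the pan-leukocyte marker Ptprc had at most 0.52 TPM and Cd3e at most 0.12 TPM in any library. Endothelial markers summed to medians of 1.49, 2.68, 0.22 and 0.25 TPM in the same order of genotypes, with Cdh5 up to 19.6 TPM in Apc-min and Kdr at most 0.02 TPM in any library. Fibroblast markers summed to at most 1.04 TPM in any library. The part of these cell type differences in the subunit differences was not tested.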

How the data were processed

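Organoid RNA was sequenced as directional 101-base single reads, per the labels' protocols. The authors deposited TPM per gene and genotype, made with STAR 2.5, RSEM 1.3.0 and GRCm38 per the submitters' processing notes; the strand setting is not given in the sources used here. Their quantile-normalized tables, a signal scaled within each genotype by the authors, served as an alternative. The alignment table deposited with them gives read counts and percent of reads per library. Of 96 labelled libraries, 8 were not in the tables and are not analysed here. Gene names and coordinates are from GENCODE M21.

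Level differences were fitted with limma 3.58.1 (R 4.3.3, trend) on log2(TPM + 1), with time point as a factor, over genes whose mean reached 1 TPM in a genotype of the comparison, and p-values were Benjamini-Hochberg adjusted over all of them. Fold changes on this scale understate those of low genes. Time was fitted as a 24 h cosine. Scripts were tested on simulated data. The members, gene lists and 2 doubted libraries were chosen with earlier results of these data known.

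Genes named are the mtDNA subunits, the 5 nuclear members of lowest adjusted p in each direction and test, complex II, alternative isoforms, and up to 4 genes of each other list with large differences. Ndufs7, Ndufs8, Ndufa5, Uqcrq, members with separate ranges, Tfam, Etfa, Etfb and Cycs were added after their values were seen. Of the lists, 1 symbol (Fastkd4) had no match.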

Additional observations from a re-analysis of the deposited data

Results flagged for a closer look

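The difference between Apc-min Bmal1-null and Apc-min organoids was set against that between Bmal1-null and control organoids for each member, and the members named below had a difference between these 2 differences past the threshold (limma, interaction over 88 libraries, adjusted p under 0.05). The log2 interaction was -2.28 for Cox7a1, -0.47 for Ndufa6, -0.45 for Ndufa1, -0.40 for Ndufa4, -0.30 for Cox4i1, -0.29 for Atp5j, -0.28 for Cox8a, -0.26 for Sdhc, -0.25 for Cox6a1, -0.24 for Cox7a2, -0.23 for Sdha and -0.14 for Sdhd. It was 0.69 for Cox6b2 and -0.32 for the mtDNA-encoded mt-Co1. None of them was called with library-set means as units.

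The 24 h cosine differed between the 4 genotypes for Uqcrc1 (limma adjusted p = 0.0099) and Sdhc (limma adjusted p = 0.0242). Neither was called with median-of-ratios scaling or without the 26 h time point. The fitted peaks of Uqcrc1 were at 39.8 h in Apc-min Bmal1-null, 38.7 h in Apc-min, 28.3 h in Bmal1-null and 29.9 h in control libraries, and those of Sdhc at 41.2, 41.1, 28.2 and 29 h in the same order of genotypes.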

How the results depend on the processing

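Counts of members called moved as follows. In Bmal1-null over control, 0 of 87 became 1 with a pseudocount of 0.1 TPM, 3 with library set as a term, 8 with the length slope as a covariate and 1 with all 4 genotypes in 1 fit. Across all 12654 genes the count of 450 became 446, 628, 1335 and 222 in these settings. In Apc-min Bmal1-null over Apc-min, 56 became 25 with median-of-ratios scaling and 4 with library-set means, while 7769 of all 12885 genes became 8409 and 1929. In Apc-min over control, 56 became 27 with set means, and 11153 of all 13663 genes became 8100. The interaction's 44 became 14 with median-of-ratios scaling and 0 with set means, and 6606 of all 13846 genes became 7239 and 445. The count of 65 in Apc-min Bmal1-null over Bmal1-null stayed within 1.5 times in every setting tried, but with the length slope it changed to 49 lower and 23 higher, against 60 and 5, and 43 of the 57 nuclear lower calls were kept. The mtDNA to nuclear ratio moved by less than its SD in every setting tried.

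For the cosine, the control count of 0 became 1 with median-of-ratios scaling, 2 with library set, 1 with a linear term in its place and 1 in the authors' quantile-normalized tables, and the Bmal1-null count of 0 became 8 with the linear term. Across all genes the control count of 7 became 33, 289, 276 and 45 in these settings. The Bmal1-null count of 0 genes became 842. The Apc-min count of 6 became 3 with no filter, 3 with median-of-ratios scaling, 14 with library set, 26 with the length slope, 2 without the doubted libraries, 15 with a linear term in place and 0 with one added. Across all genes the count of 1513 became 587, 1326, 4179, 5486, 401, 3943 and 0 in the same order. The Apc-min Bmal1-null count of 2 became 1 with a pseudocount of 0.1, 0 with no filter, 1 with a filter at 5 TPM, 0 with median-of-ratios scaling, 4 with the length slope, 11 without the doubted libraries, 8 with a linear term in place, 0 with one added and 1 in the quantile-normalized tables. Across all genes the count of 316 became 291, 218, 223, 378, 1237, 1444, 1030, 0 and 417 in the same order. The count of 2 for cosines that differ became 0, 7, 10 and 4 with median-of-ratios scaling, library set, the length slope and without the doubted libraries. Across all genes the count of 259 became 182, 1923, 572 and 672. The cause of these moves was not tested.

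Leaving out each library in turn gave 49 to 65 calls in Apc-min Bmal1-null over Apc-min, 62 to 72 over Bmal1-null, 52 to 59 in Apc-min over control, 42 to 51 for the interaction and 0 to 2 in Bmal1-null over control (2 without control at 38 h, replicate 2). Leaving out each library or time point gave 0 to 11 for the cosine in Apc-min (11 without 30 h, replicate 1, and 0 without 26 h), 0 to 11 in Apc-min Bmal1-null (11 without 28 h, replicate 1, and 0 without 26 h, replicate 2) and 0 to 5 for cosines that differ (5 without Apc-min Bmal1-null at 28 h, replicate 1, and 0 without 26 h).

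With median-of-ratios scaling the sign turned for Sdhd in Apc-min over control (-0.138) and for Ndufs1 (-0.006) and Atp5f1 (-0.037) in Apc-min Bmal1-null over Bmal1-null; with the length slope it turned there for Ndufs1 (-0.066) and Cox6b1 (0.195). No paired analysis was possible because replicate numbers follow accession order and pair no libraries across genotypes. TPM tables keep no read depth per gene, so members near 0 TPM have no floor here.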
